A study of Drosophila melanogaster with 9 samples.

Results

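Across 9 libraries of poly(A) RNA from the fat body of Drosophila melanogaster, 58 of 10242 genes were abundant in larvae and in 1 set of prepupae and at least 8 times lower in the other set of prepupae. They were chosen by the deposited values. The lowest of 6 libraries, 3 of larvae and 3 of prepupae titled mitf, had to be at least 100, and at least 8 times the highest of the 3 libraries of prepupae titled LacZ. Symbols that start with Vha, Cyp, Gst, Lsp or Pros were left out, which removed 1 gene, GstZ1, with a lowest value of 232 and a highest of 27.4. Of the 4480 genes that reached 100 in all 6 libraries, 59 met the ratio before that step, a share of 1.32%. Since these values chose the genes, the low level in prepupae titled LacZ is a description and carries no test. The genes were not absent there: 57 of the 58 had a value above 0 in at least 1 of the 3 libraries.

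Each library was made from the fat bodies of 5 animals. Larvae, titled e3IL_LacZ, were at the third instar by their stage label and carried UAS-LacZ/+; Lsp2-GAL4/+, in which the Lsp2-GAL4 driver, active in the fat body, expresses bacterial beta-galactosidase. All 6 prepupa libraries carry the genotype label UAS-Mitf/+; Lsp2-GAL4/+ and the stage label white pupa, but 3 are titled LacZ and 3 are titled mitf, so title and genotype disagree for the first 3. The names of the value columns disagree with the titles for all 6 prepupa libraries: those titled LacZ are headed mitf and those titled mitf are headed LacZ. Mitf, the transcription factor that the study overexpressed, had values of 35204 to 68535 in the 3 libraries titled LacZ, against 378 to 411 for larvae and 347 to 407 for those titled mitf. The libraries are called by their titles throughout, and the genes described here were low in the libraries with high Mitf values. The larvae and the prepupae titled mitf therefore differ in stage and in genotype label, although their Mitf values overlapped. By the labels, stage and genotype cannot be told apart. The study set out to compare Mitf overexpression at the prepupa stage and to compare larvae with prepupae. Nothing in the labels says whether the 3 libraries of a group came from separate cultures, so p-values measure the spread between these libraries only.

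The larval fat body of Drosophila stores fat, glycogen and protein, and it makes most of the proteins of the hemolymph. Proteins for export carry a signal sequence that the signal recognition particle (SRP) binds. The SRP receptor brings the ribosome to the Sec61 channel in the membrane of the endoplasmic reticulum (ER), signal peptidase cuts the signal sequence off, and sugar chains are added as the chain enters. The fat body also breaks down and makes amino acids, nucleotides and sugars, and shows large changes of gene expression when the larva stops feeding and pupariates. Mitf belongs to the family of the mammalian MITF and TFEB factors, which are known for activating lysosomal and autophagy genes.

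Normalised values summed to 22604438 to 27178650 per larva library, 23607147 to 24354238 for prepupae titled mitf and 17195757 to 18187221 for prepupae titled LacZ. The 58 genes together made up 1.55% to 1.70%, 1.21% to 1.31% and 0.0746% to 0.0844% of these sums. The low values of a library were mostly whole multiples of 1 step of 0.744 to 1.39, taken here as a single read, which puts the depth at an estimated 18500000 to 29000000 reads per library. Fat body markers also differed between the groups. The summed level of 10 of them, storage proteins and their receptor among them, ran from 1130804 to 1565837 for prepupae titled LacZ, from 10261982 to 10567455 for those titled mitf and from 7988358 to 13036550 for larvae. None of the 10 was at 0, and 8 were lower and 1 was higher in prepupae titled LacZ than in those titled mitf. One of the 8, Adh, is among the 58 genes, so the rule set its direction. Without it, 7 of 9 were lower and 1 higher. Over the genes that reached 100 in all 6 libraries, 45.9% were called lower and 36.6% higher. For all 10139 genes tested the shares were 31.6% and 41.1%. Markers of the Malpighian tubule summed to 47733 to 51994 in prepupae titled LacZ, against 3619 to 3998 in those titled mitf and 4640 to 5797 in larvae, and 11 of 14 were higher in prepupae titled LacZ than in those titled mitf. Gut markers summed to 7375 to 10588, against 2906 to 3325 for prepupae titled mitf and 95.4 to 145 for larvae, with 8 of 14 higher and 2 lower, or 0 lower with libraries scaled to the same total. Epidermis and disc markers summed to 437139 to 467244 for prepupae titled LacZ, against 174813 to 243559 for those titled mitf and 4014 to 7639 for larvae, with 4 of 10 higher and 2 lower between the prepupae. Tracheal markers summed to 3818 to 4350, against 249.9 to 393 and 274 to 401, with 1 of 7 higher and 1 lower. Neuron markers were highest in sum in prepupae titled mitf, at 19429 to 20763, against 2152 to 3299 for those titled LacZ and 2148 to 3407 for larvae, and between the prepupae 5 of 9 were higher in those titled LacZ and 2 were lower. Hemocyte markers summed to 215188 to 349767 for larvae, 39180 to 49291 for prepupae titled mitf and 26117 to 42263 for those titled LacZ. None of the 10 marker lists of other cell types held one of the 58 genes. Few of their genes could have met the rule, since only 0 (gut) to 7 (hemocyte) per list reached 100 in all 6 libraries. Over all genes that did, 1.32% met the ratio, so the lack of a marker among the 58 says little. The part of other cell types in the results was not tested. In bulk tissue, fewer cells of a type and less RNA per cell cannot be told apart.

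**Figure D1:**
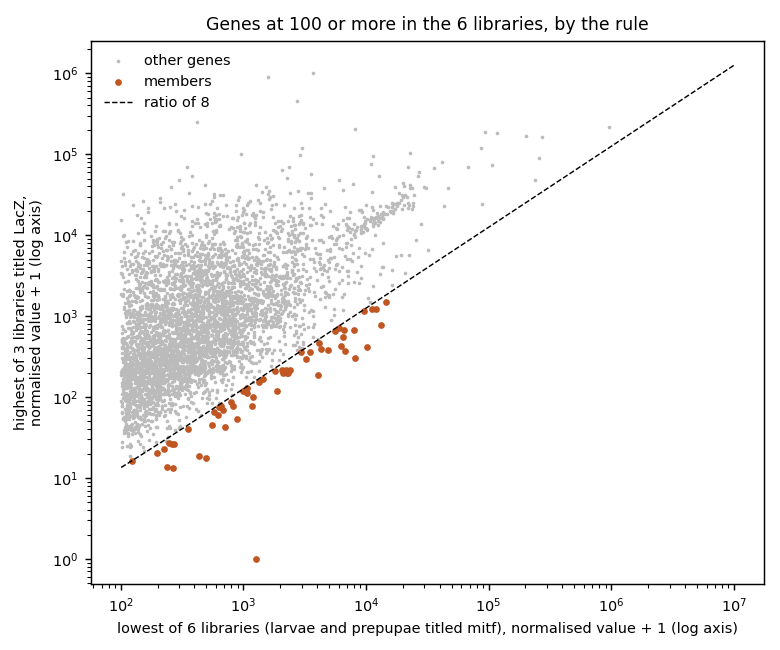
Lowest value of the 6 libraries of larvae and prepupae titled mitf (horizontal, normalised value + 1, log axis) against the highest value of the 3 libraries of prepupae titled LacZ (vertical, same unit, log axis), 1 point per gene, for the 4480 genes that reached 100 in all 6 libraries. The 58 chosen genes form the lower edge of a continuous cloud, and 1 of them, Unc-115b, lies at 0.

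The thresholds fall within a continuous range of values. Just inside the ratio of 8 were CG30428 at 8.16, the mannosyltransferase gene Alg11 at 8.20 and the zinc transporter family gene Zip102B at 8.29. Just outside were CG31126 at 7.87, the SRP receptor gene SrpRalpha at 7.85 and Mtp, a gene of lipoprotein assembly, at 7.81. For the value of 100, the lowest chosen genes were CG30428 at 123 and Daao2 at 197, and a gene just below that value that met the ratio was CG42233 at 96.1. Over the 58 genes the ratio of the lowest of the 6 to the highest of the 3 libraries ran from 8.16 to 29.9, with a median of 10.4 over the 57 with a value above 0. As group means, prepupae titled LacZ had 0% to 11.05% of the level of prepupae titled mitf (median 6.63%) and 0% to 10.3% of the level of larvae (median 4.71%).

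Among the 32 genes with a name, 9 act in or near the secretory pathway and 13 are metabolic enzymes. The other 10 named genes are of mixed kinds, and 26 genes have only a CG number. Those 26 were not sorted by function, so some may also be secretory or metabolic genes. These classes were made by hand after the genes were known.

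Of the 9 secretory genes, 4 encode parts of the machinery that brings proteins into the ER. Sec61beta (FBgn0010638, chromosome 2R, 14618771 to 14619681, plus strand, in the BDGP6 assembly) encodes the small beta subunit of the Sec61 channel. Its normalised values were 15934, 16801 and 12333 in larvae, 6144, 4913 and 5319 in prepupae titled mitf, then 369, 382 and 379.8 in prepupae titled LacZ. All 3 groups were apart, in that order. The membrane-bound subunit of the SRP receptor, encoded by SrpRbeta (FBgn0011509, 3L, 8718949 to 8720225, minus strand), showed the same order at a lower level, with 1661, 1650 and 1536 in larvae, 585, 571 and 602 in prepupae titled mitf, then 65.0, 61.9 and 45.03 in prepupae titled LacZ. The gene l(1)G0320 (FBgn0028327, X, 9551140 to 9553750, minus strand), which encodes the alpha subunit of the translocon-associated complex, had 30122, 30567 and 25613 in larvae, 12444, 10548 and 9680 in prepupae titled mitf, then 927, 1152 and 1036 in prepupae titled LacZ. For the signal peptidase subunit gene Spase25 (FBgn0030306, X, 11485250 to 11486566, plus strand) the values were 4329, 4222 and 3278, then 3354, 2947 and 3063, then 269, 355 and 322. Spase25 was the gene of these 4 whose larvae and prepupae titled mitf overlapped.

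Larvae and prepupae titled mitf are on the same side of the rule, so their difference could go either way, although neither could lie below 100. Positive values of that difference are higher in prepupae titled mitf. On the log2(value + 1) scale it was -1.45 ± 0.13 for Sec61beta (SE; limma adjusted p = 4.31e-06), -1.46 ± 0.14 for SrpRbeta (limma adjusted p = 6.89e-06) and -1.40 ± 0.13 for l(1)G0320 (limma adjusted p = 5.41e-06). The 3 genes were lower in prepupae titled mitf than in larvae, and their values were lower again in prepupae titled LacZ. Spase25, at -0.33 ± 0.14 (limma adjusted p = 0.0572), did not pass the threshold of 0.05.

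The other 5 secretory genes act beside this machinery. Tmem214, a transmembrane protein gene, had 21472, 20386 and 15940 in larvae, 12136, 13186 and 12670 in prepupae titled mitf, then 1159, 1211 and 1144 in prepupae titled LacZ. The gene sel (seele), a canopy family gene, had 7785, 6836 and 4947, then 2161, 2128 and 2102, then 175, 125 and 199.6. Ufm1, which encodes a ubiquitin-like modifier attached to proteins at the ER, had 1023, 916 and 860.0, then 668, 625 and 618, then 58.3, 49.4 and 51.1. These 3 genes fell between larvae and prepupae titled mitf, by 0.59 ± 0.12, 1.59 ± 0.20 and 0.55 ± 0.11 on the log2 scale (limma adjusted p = 0.00119, 4.71e-05 and 0.00163). The p24 family cargo receptor gene loj had 2599, 2618 and 2253 in larvae, 2447, 2371 and 2222 in prepupae titled mitf, then 173, 213 and 167 in prepupae titled LacZ. Alg11, whose enzyme adds mannose to the lipid-linked sugar chain before its transfer to protein, had 1369, 1216 and 1064, then 1327, 1236 and 1209, then 123, 129.7 and 124. For loj (-0.08 ± 0.11, limma adjusted p = 0.548) and Alg11 (0.05 ± 0.11, limma adjusted p = 0.684) no difference passed between larvae and prepupae titled mitf. Thus 6 of the 9 secretory genes were lower in prepupae titled mitf, none was higher and 3 did not pass. Over the genes that reached 100 in all 6 libraries, 39.7% were called lower and 37.1% higher.

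The ER entry machinery was followed further in a list of 21 named genes, without CG-numbered ones, written after the 58 genes were known. It holds SRP subunits, the SRP receptor, the translocon, the translocon-associated complex and signal peptidase. Subunits encoded by CG-numbered genes, possibly some of the 58 among them, would be missing from it. In prepupae titled LacZ against prepupae titled mitf, 17 of the 21 were called lower and 4 higher, with a median log2 difference of -2.32. Without the 4 chosen genes, 13 of 17 were lower and 4 higher, with a median of -1.49. Over the genes that reached 100 in all 6 libraries, 45.9% were called lower and 36.6% higher, with a median of -0.21, and over all 10139 genes tested 31.6% were lower, 41.1% were higher and the median was 0.22. Those shares stand for 3200 lower and 4166 higher genes, which became 2336 and 4952 when libraries were scaled to the same total, a scaling under which 13 of the 17 other listed genes were again lower and 4 higher. Against larvae, prepupae titled mitf were lower for 18 of the 21 genes and higher for 0, with a median of -1.30. Without the 4 chosen genes, 15 of 17 were lower and 0 higher. In this comparison 39.7% of the genes that reached 100 in all 6 libraries were lower and 37.1% higher, with a median of -0.03. For all genes tested the shares were 31.7% and 34.8%, with a median of 0.08. The difference between larvae and prepupae titled mitf did not pass for the 3 signal peptidase genes Spase12, Spase22-23 and Spase25, at -0.16 ± 0.13, -0.06 ± 0.10 and -0.33 ± 0.14 (limma adjusted p = 0.283, 0.632 and 0.0572). Both comparisons use the prepupae titled mitf, so they are not independent of each other.

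The translocon was the only one of the 5 complexes with listed genes in both directions between the prepupae. Its pore subunit gene Sec61alpha had 39954, 41083 and 31964 in larvae, 14417, 12197 and 12014 in prepupae titled mitf, then 16124, 16834 and 15816 in prepupae titled LacZ. Sec61gamma, which like Sec61beta encodes a small subunit, had 8173, 8158 and 6916, then 2024, 2042 and 1694, then 243, 237 and 174. Sec61beta and Sec61gamma were thus lowest in prepupae titled LacZ, and Sec61alpha was not. In prepupae titled LacZ minus prepupae titled mitf, Sec61gamma was at -3.14 ± 0.14 (limma adjusted p = 3.48e-08) and Sec61alpha at 0.34 ± 0.13 (limma adjusted p = 0.0374). The call for Sec61alpha was lost with trimmed mean scaling (0.16, limma adjusted p = 0.302) and without replicate 2 or 3 of prepupae titled mitf or any 1 replicate of prepupae titled LacZ (0.29 to 0.36, limma adjusted p = 0.0609 to 0.117), and its value was 0.77 when libraries were scaled to the same total. The other channel partners Trp1, TRAM and Sec63 were higher in prepupae titled LacZ, at 0.49 ± 0.08, 0.72 ± 0.12 and 1.58 ± 0.11 (limma adjusted p = 0.000208, 0.000363 and 8.12e-07).

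All 6 SRP protein genes measured were lower in prepupae titled LacZ, with a median of -1.44, and lower in prepupae titled mitf than in larvae, with a median of -1.13. SrpRalpha, the partner of SrpRbeta, had 6237, 6501 and 5365 in larvae, 1508, 1374 and 1196 in prepupae titled mitf, then 152, 151 and 140 in prepupae titled LacZ. It missed the chosen set by its ratio of 7.85, and its difference between the prepupae was -3.19 ± 0.11 (limma adjusted p = 5.52e-09). The other 2 listed genes of the translocon-associated complex, SsRbeta and Tapdelta, were at -2.56 ± 0.10 and -3.26 ± 0.16 (limma adjusted p = 1.51e-08 and 4.92e-08). The 3 listed signal peptidase genes other than Spase25 were also lower, at -2.32 for Spase12, -2.79 for Spase22-23 and -0.76 for twr, which encodes a catalytic subunit.

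**Figure D2:**
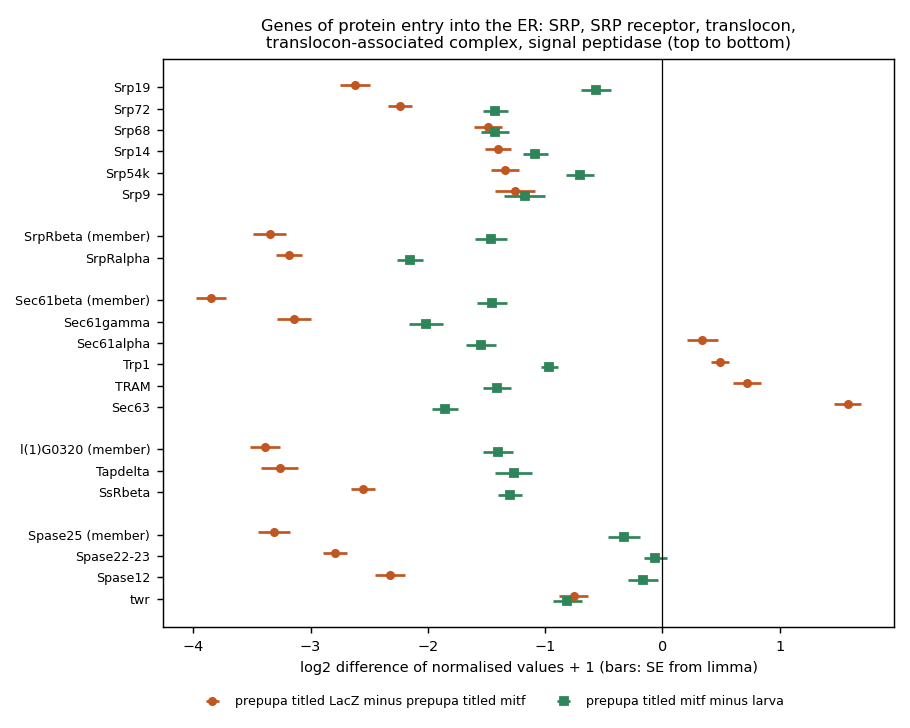
Log2 differences of normalised values + 1 (horizontal, bars SE from limma) for the 21 genes of protein entry into the ER (vertical, grouped by complex), for prepupae titled LacZ minus prepupae titled mitf (circles) and prepupae titled mitf minus larvae (squares). Of the circles 17 lie below 0, among them the 4 chosen genes, which the rule placed there. Of the 17 other genes 13 lie below 0 and 4 above it. Those above are Sec61alpha, whose call was lost in some alternatives, Trp1, TRAM and Sec63, all of the translocon.

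Other ER systems held both lower and higher genes. In the oligosaccharyltransferase, which transfers the sugar chain, 3 of 6 genes were lower in prepupae titled LacZ than in those titled mitf, Stt3B at -2.82, OstDelta at -2.57 and Ostgamma at -2.44. Ost48 and Stt3A were higher there, at 0.71 and 0.93. All 6 were lower in prepupae titled mitf than in larvae, beside 39.7% of the 4480 genes. Of the 9 genes other than Alg11 of the Alg enzymes that build the chain, 6 were lower in prepupae titled LacZ and 2 were higher, Alg1 at 1.96 and Alg7 at 1.29. In the system that conjugates Ufm1, 4 of the 5 genes other than Ufm1 itself were lower, with Ufc1 at -2.79 and Ufsp2 at -2.59, and Ufl1 was higher at 0.28, a call that was lost with trimmed mean scaling. Of the 6 p24 genes other than loj, 4 were lower and 2 higher, eca at 0.63 and opm at 0.90. The ER membrane complex, which inserts membrane proteins, held none of the 58 genes, and 5 of its 10 genes were lower and 3 higher.

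The 13 metabolic enzymes were divided between larvae and prepupae titled mitf. By the fit, 6 rose, 6 fell and 1 did not pass, where 37.1% of the 4480 genes that reached 100 rose and 39.7% fell. The largest fall was that of Adh (FBgn0000055, 2L, 14615552 to 14618902, plus strand), alcohol dehydrogenase, also one of the 10 fat body markers. Adh had 155415, 106989 and 123094 in larvae, 8204, 7196 and 6637 in prepupae titled mitf, then 582, 674 and 604 in prepupae titled LacZ. The groups were far apart, and the difference between larvae and prepupae titled mitf was -4.12 ± 0.15 (limma adjusted p = 7.82e-09). Its neighbour Adhr lies wholly inside the annotated extent of Adh and is known to share a transcript with it. Adhr had 1025, 789 and 818, then 59.9, 114 and 53.1, then 17.4, 6.14 and 11.1, so reads of both genes may have been split between them.

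D2hgdh, the dehydrogenase of D-2-hydroxyglutarate, had 11882, 11342 and 12712 in larvae, 1934, 1910 and 1868 in prepupae titled mitf, then 108, 83.4 and 119 in prepupae titled LacZ. Had1, listed by RefSeq under the synonym CRYL1, had 3896, 4688 and 6231, then 628, 685 and 558, then 39.6, 40.5 and 43.8. Each group lay below the one before it for both genes. Prepupae titled mitf minus larvae was -2.65 ± 0.12 for D2hgdh and -2.96 ± 0.16 for Had1 (limma adjusted p = 4.93e-08 and 1.46e-07). The copy Had2 was far lower and scattered, with 42.9, 250.2 and 66.8 in larvae, 39.3, 26.9 and 84.1 in prepupae titled mitf, then 10.4, 24.7 and 17.9 in prepupae titled LacZ, and neither difference passed.

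The D-amino acid oxidase genes Daao1 and Daao2 went opposite ways between larvae and prepupae titled mitf. Daao2 had 808, 889 and 1292 in larvae, 227, 197 and 202 in prepupae titled mitf, then 15.9, 11.5 and 19.4 in prepupae titled LacZ, and fell by 2.22 ± 0.22 on the log2 scale between the first 2 groups (limma adjusted p = 1.14e-05). Daao1, which is not one of the 58, had 788, 768 and 984, then 11869, 10071 and 11151, then 363, 316 and 333. It rose by 3.71 ± 0.12 between larvae and prepupae titled mitf (limma adjusted p = 3.73e-09), and its values in prepupae titled LacZ lay below those of both other groups.

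Nt5a, a nucleotidase gene by name (FBgn0035204, 3L, 1304850 to 1307418, minus strand), showed the largest rise of the 58 genes between larvae and prepupae titled mitf. It had 968, 886 and 897 in larvae, 13435, 13803 and 11803 in prepupae titled mitf, then 51.7, 50.6 and 52.7 in prepupae titled LacZ. The rise was 3.82 ± 0.09 (limma adjusted p = 8.63e-10), and the mean of prepupae titled mitf was 252 times that of prepupae titled LacZ, the largest such ratio of the 57 genes with one. Hao, which RefSeq lists as a hydroxyacid oxidase gene by its synonyms, had 2429, 1632 and 1347 in larvae, 7591, 8905 and 6620 in prepupae titled mitf, then 132, 151 and 123 in prepupae titled LacZ. Hao rose by 2.13 ± 0.20 between larvae and prepupae titled mitf (limma adjusted p = 7.22e-06).

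UGP, which makes UDP-glucose, had 7335, 7660 and 8196 in larvae, 4733, 4720 and 4268 in prepupae titled mitf, then 391, 281 and 359 in prepupae titled LacZ, and fell by 0.76 ± 0.12 between the first 2 groups (limma adjusted p = 0.000342). It was the only one of the 58 genes in a list of 12 measured genes of gluconeogenesis and sugar storage. Of the other 11 genes, 6 were lower and 4 higher in prepupae titled LacZ than in those titled mitf, and of all 12, 9 were lower and 2 higher in prepupae titled mitf than in larvae.

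The genes pug and ppl were higher in prepupae titled mitf than in larvae. The gene pug (FBgn0020385, 3R, 10696534 to 10703316, plus strand) encodes an enzyme of the folate one-carbon pathway, which feeds purine synthesis. It had 15750, 13599 and 13339 in larvae, 29708, 33152 and 26128 in prepupae titled mitf, then 529, 346 and 778 in prepupae titled LacZ, and rose by 1.06 ± 0.24 (limma adjusted p = 0.00337). The gene ppl (FBgn0027945, 3L, 21280491 to 21281506, minus strand) encodes a protein of the glycine cleavage system and is known from the fly fat body. Its values were 12513, 11298 and 10260, then 16163, 16271 and 15597, then 410.3, 381 and 371, with a rise of 0.50 ± 0.09 (limma adjusted p = 0.000867). Its ratio of 25.0 between the lowest of the 6 and the highest of the 3 libraries was among the largest of the named genes.

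In the list of nucleotide and one-carbon genes that holds pug, 5 of the other 12 measured were lower and 6 higher in prepupae titled LacZ than in those titled mitf. Shmt, the enzyme that feeds one-carbon units from serine into the same pathway, was at -4.73 ± 0.19 without meeting the rule, and ry, xanthine dehydrogenase, was at 5.10 ± 0.16 (limma adjusted p = 1.48e-08 and 3.00e-09).

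AsnS, asparagine synthetase, had 6570, 5444 and 4132 in larvae, 3453, 3541 and 3218 in prepupae titled mitf, then 291, 201 and 184 in prepupae titled LacZ, and fell by 0.64 ± 0.20 between the first 2 groups (limma adjusted p = 0.0158). Ssadh, succinic semialdehyde dehydrogenase, had 1692, 1443 and 1617, then 2038, 1977 and 1926, then 135, 164 and 138, and rose by 0.32 ± 0.10 (limma adjusted p = 0.0195). Without larva replicate 1 the call for AsnS was lost, at -0.48, and the call for Ssadh was lost in 4 of the alternatives, at 0.25 to 0.33. Aldh7A1, an aldehyde dehydrogenase gene, had 7401, 6893 and 7869, then 6079, 6898 and 6149, then 709.7, 592 and 702, and its difference between larvae and prepupae titled mitf of -0.21 ± 0.10 did not pass (limma adjusted p = 0.0927).

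The 10 other named genes include several that encode secreted proteins. Obp99c, of the odorant-binding protein family, had 16311, 14650 and 14484 in larvae, 29233, 32338 and 25568 in prepupae titled mitf, then 1478, 773 and 1217 in prepupae titled LacZ. It rose by 0.93 ± 0.21 (limma adjusted p = 0.0027). Its family members were ordered differently between larvae and prepupae titled mitf. Obp99a had 1230, 801 and 748 in larvae, 137, 168 and 162 in prepupae titled mitf, then 31.5, 41.1 and 39.8 in prepupae titled LacZ. Obp99b had 242996, 161220 and 107667, then 408193, 386955 and 342657, then 64768, 71179 and 74250. All 3 were lowest in prepupae titled LacZ, and Obp99a alone was lower in prepupae titled mitf than in larvae.

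Ance-4, of the angiotensin converting enzyme family, had 8414, 8205 and 9440 in larvae, 14303, 11847 and 14845 in prepupae titled mitf, then 258, 167 and 302 in prepupae titled LacZ. Its ratio of lowest to highest, 27.1, was the largest of the named genes that have one, and its rise from larvae to prepupae titled mitf was 0.65 ± 0.20 (limma adjusted p = 0.014). Ance-5 went the other way, with 187, 209 and 248 in larvae, 7.31, 19.1 and 23.1 in prepupae titled mitf, then 483, 512 and 598 in prepupae titled LacZ. The C-type lectin gene lectin-28C had 540.0, 440.0 and 226, then 903, 1182 and 1331, then 22.04, 17.3 and 7.63, and rose by 1.57 ± 0.40 between the first 2 groups (limma adjusted p = 0.00586).

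Idgf2, a chitinase-like growth factor gene, had 5537, 5137 and 5709 in larvae, 4172, 4607 and 4348 in prepupae titled mitf, then 463, 309.8 and 450.4 in prepupae titled LacZ. The neighbouring family gene Idgf3 had 3905, 3694 and 3780, then 4546, 4446 and 4171, then 5012, 2472 and 4871. Idgf1 had 1415, 1530 and 1709, then 1146, 1296 and 1396, then 886, 403 and 656. Of these 3, Idgf2 was more than 8 times lower in prepupae titled LacZ, Idgf1 was lower by 1.05 ± 0.24 on the log2 scale (limma adjusted p = 0.00277), and Idgf3 did not pass (-0.16 ± 0.23, limma adjusted p = 0.547). Between larvae and prepupae titled mitf, the difference of Idgf2, -0.32 ± 0.14, did not pass (limma adjusted p = 0.0771). Of 15 other tested genes of secreted growth and nutrient signals, 7 were lower and 4 higher in prepupae titled LacZ than in those titled mitf.

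Jheh3 encodes a juvenile hormone epoxide hydrolase, of the enzymes that inactivate that hormone. It had 1325, 1139 and 686 in larvae, 1615, 1417 and 1331 in prepupae titled mitf, then 50.2, 38.9 and 67.9 in prepupae titled LacZ. The 3 Jheh genes did not move together. Jheh1 had 929, 1095 and 899, then 720, 647 and 627, then 2845, 3350 and 2847, so it was highest in prepupae titled LacZ. Jheh2 had 1029, 983 and 708, then 1272, 1488 and 1312, then 772, 684 and 753. Between the prepupae, Jheh1 was at 2.18 ± 0.11 and Jheh2 at -0.88 ± 0.14 (limma adjusted p = 6.84e-08 and 0.000309). Between larvae and prepupae titled mitf, the difference of Jheh3 of 0.52 ± 0.26 did not pass (limma adjusted p = 0.103). Of 22 other measured ecdysone and juvenile hormone genes, 10 were lower and 8 higher in prepupae titled LacZ than in those titled mitf. With Jheh3 counted and libraries scaled to the same total, 7 were lower and 8 higher.

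The carboxylesterase gene alpha-Est7 had 5617, 6404 and 7645 in larvae, 7691, 7909 and 6463 in prepupae titled mitf, then 649, 176 and 639.6 in prepupae titled LacZ, with 1 of the last 3 libraries far below the others. Its family member alpha-Est8 had 61.0, 145 and 181, then 1035, 1270 and 972, then 1668, 1348 and 1593, and lay higher in prepupae titled LacZ without overlap, a difference that did not pass (0.50 ± 0.33, limma adjusted p = 0.204). Zip102B had 1043, 1076 and 986, then 1117, 1224 and 1251, then 99.8, 119 and 100.3. The receptor family gene mthl3 had 809.9, 793 and 717, then 655, 697 and 637, then 72.7, 74.7 and 72.2. Den1, named for a protease of the Nedd8 modifier, had 278, 308 and 327, then 275, 263 and 259, then 25.0, 18.5 and 17.9. For these 4 chosen genes no difference between larvae and prepupae titled mitf passed, with values of 0.17, 0.21, -0.22 and -0.19 for alpha-Est7, Zip102B, mthl3 and Den1 (limma adjusted p = 0.75, 0.1, 0.0697 and 0.327).

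Unc-115b (FBgn0260463, 3R, 9687060 to 9692775, minus strand), of a family of actin-binding proteins, was listed at 0 in all 3 libraries of prepupae titled LacZ. It had 3399, 3404 and 3416 in larvae and 1746, 1279 and 1648 in prepupae titled mitf, so no fold is given. Between those 2 groups it fell by 1.14 ± 0.14 on the log2 scale (limma adjusted p = 4.48e-05). Of the 4480 genes that reached 100 in all 6 libraries, it was the only one at 0 in all 3. Of the 5426 that reached 50, Cyp6a17 was the other one. The p24 family gene p24-2 (3R, 9687402 to 9692794, minus strand) overlaps it and was also at 0 in all 3, with 77.3, 104 and 97.7 in larvae and 48.4, 53.9 and 119.6 in prepupae titled mitf. It was one of 3 such genes among the 6708 that reached 10.

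The next genes at the locus did not follow it. CG18542, which overlaps Unc-115b by 82 bases, had 201, 221 and 251 in larvae, 142, 0 and 174 in prepupae titled mitf, then 63.0, 0 and 583 in prepupae titled LacZ. CG32939 was listed at 0 in 5 of the 6 libraries of larvae and prepupae titled mitf, with 190 in the sixth, and had 2000, 1634 and 1261 in prepupae titled LacZ. The gene eca had 3512, 3238 and 2911, then 2069, 1845 and 1861, then 2877, 2809 and 3229. The close copy Unc-115a had 1528, 1732 and 1818 in larvae, 724, 710.1 and 669 in prepupae titled mitf, then 652, 679 and 627 in prepupae titled LacZ, with a difference between the prepupae of -0.10 ± 0.09 (limma adjusted p = 0.332). Reads of Unc-115a and Unc-115b, or of Unc-115b and p24-2, could have been shared in the counting. The fly stocks behind the groups may differ at this locus, and a difference of stock and a difference of group cannot be told apart.

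**Figure D3:**
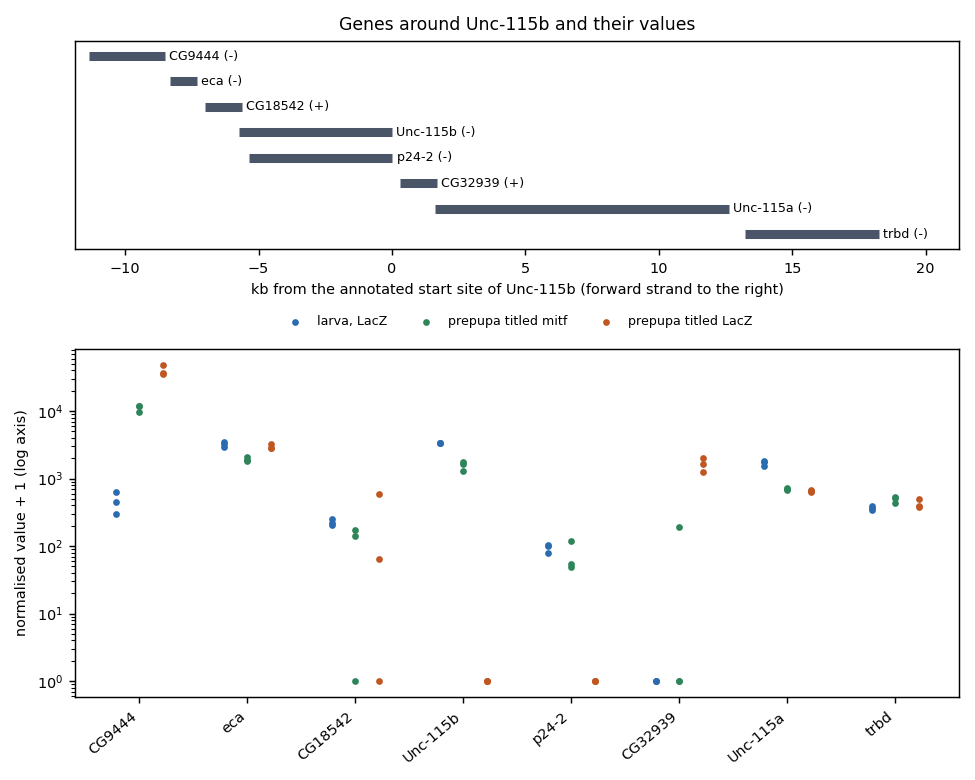
Genes around Unc-115b by distance from its annotated start site (kb, one panel) and their normalised values in the 9 libraries (other panel, value + 1 on a log axis, 1 point per library). Unc-115b and the overlapping p24-2 are at 0 in the 3 libraries of prepupae titled LacZ, where CG32939 has 1261 to 2000.

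The 26 genes with only a CG number had means in prepupae titled LacZ of 0.682% to 8.73% of those in prepupae titled mitf. CG6834 had the largest ratio of all, 29.9, with 680.4, 697 and 556 in larvae, 630.5, 752 and 492 in prepupae titled mitf, then 11.96, 4.42 and 16.4 in prepupae titled LacZ. CG13086 had 239, 264 and 278, then 1439, 1302 and 1452, then 9.19, 6.79 and 12.6, the largest rise to prepupae titled mitf among the 26, at 2.42 ± 0.20 (limma adjusted p = 2.17e-06). CG1927 had 4200, 4066 and 3108, then 1292, 1209 and 1177, then 73.9, 61.9 and 76.0, the largest fall, at -1.62 ± 0.13 (limma adjusted p = 2.56e-06). Between larvae and prepupae titled mitf, 9 of the 26 rose, 7 fell and 10 did not pass, again beside 37.1% and 39.7% of the 4480 genes. RefSeq gives the synonyms cSPH35 to CG5390 and SPH254 to CG6067.

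**Figure D4:**
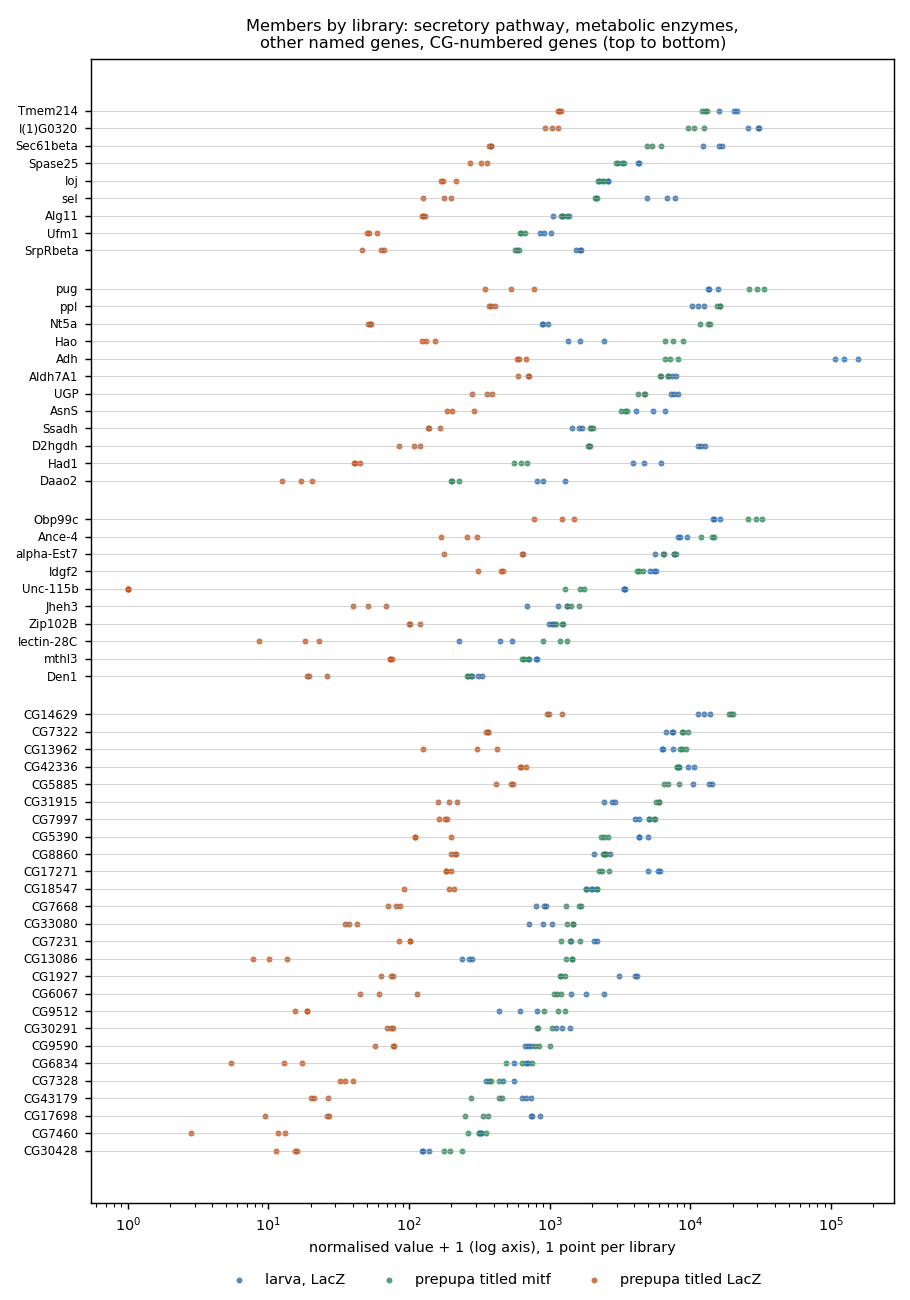
Normalised value + 1 (horizontal, log axis) of 57 of the 58 genes (vertical, grouped from top to bottom as secretory pathway, metabolic enzymes, other named genes and CG-numbered genes) in each of the 9 libraries, 1 point per library. The points of prepupae titled LacZ lie to the left for every gene shown, as the rule required, while those of larvae and prepupae titled mitf change places from gene to gene.

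Over all 58 genes, 38 were called between larvae and prepupae titled mitf, a share of 65.5%. Over all 10139 genes tested 66.4% were called, and over the 4480 that reached 100 in all 6 libraries 76.8% were. The direction was divided, with 18 higher and 20 lower in prepupae titled mitf. Of all tested genes 34.8% were called higher and 31.7% lower. The median log2 difference of the 58 was -0.13, beside -0.03 for the 4480 and 0.08 for all tested genes. In size, without sign, the median was 0.65, beside 0.84 for the 4480. A call past 1 on the log2 scale was made for 19 of the 58, 32.8%, and for 43.8% of the 4480. In 46 of the 58 the larvae and prepupae titled mitf did not overlap, which held for 71.1% of all genes tested and 84.2% of the 4480. None of these shares was above that of the 4480 genes. By class, the median was -0.59 for the secretory genes, -0.21 for the metabolic enzymes, 0.19 for the other named genes and -0.01 for the CG-numbered genes.

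**Figure D5:**
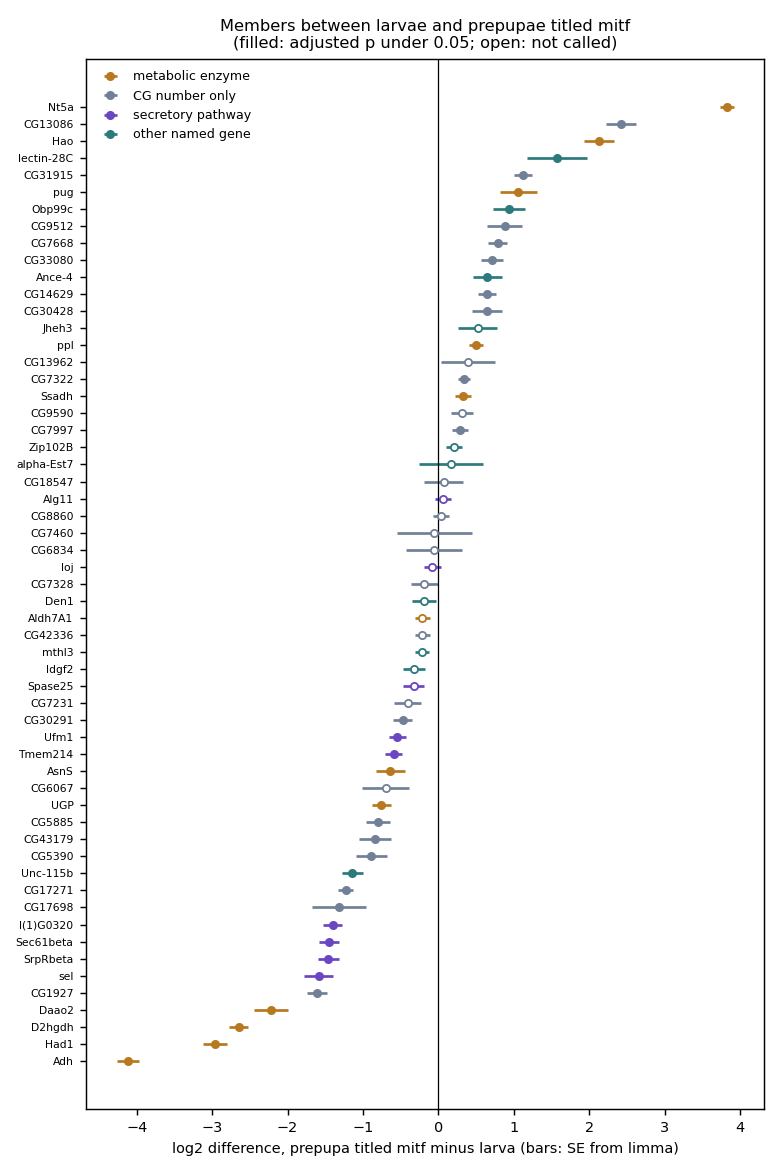
Log2 difference of prepupae titled mitf minus larvae (horizontal, bars SE from limma) for 57 of the 58 genes (vertical, in order of the difference), filled where the adjusted p was under 0.05 and coloured by class. The values run from -4.12 for Adh to 3.82 for Nt5a, and no secretory gene is called above 0.

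The genes varied between the replicates of a group about as much as the genes that reached 100 in all 6 libraries or a little more. That set was not matched by level, and the 58 genes are low in prepupae titled LacZ by the rule. The median coefficient of variation was 9.83% in larvae, 7.45% in prepupae titled mitf and 13.9% in prepupae titled LacZ, beside 8.38%, 7.33% and 12.05% over the genes that reached 100. The highest in prepupae titled LacZ was that of CG7460, at 68.3%, with values of 12.2, 1.80 and 10.6. Replicate 3 was the lowest larva library for 37 of the 58 genes, 63.8%, beside 39.4% of the genes that reached 100. In prepupae titled mitf replicate 3 was the lowest for 32 of 58, beside 30.6%. In prepupae titled LacZ replicate 2 was the lowest for 24 of 57, 42.1%, beside 42.7%.

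The rule used neither length nor position. The longest annotated transcript of the 58 genes had a median of 1616.5 bases, against 2280.5 bases for the 4398 other genes that reached 100 and had a gene model. It was under 2000 bases for 40 of the 58, 69.0%, and for 42.3% of the others. The rule was met by 40 of 1899 such genes under 2000 bases, 2.11%, by 18 of 2557 longer ones, 0.704%, and by 0 of 645 of at least 5000 bases. Among the genes that did not meet the rule, the median difference of prepupae titled LacZ minus those titled mitf was -0.41 under 2000 bases and 0.02 above, so shorter genes were lower also outside the set. For prepupae titled mitf minus larvae the medians of those genes were -0.30 and 0.13, so this order was not particular to prepupae titled LacZ. The part of transcript length in the result was not tested. A single exon was annotated for 7 of the 58, 12.1%, beside 6.09% of the others.

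The 58 genes were spread over the genome, with 9 on X, 11 on 2L, 13 on 2R, 14 on 3L, 10 on 3R and 1 on chromosome 4. The nearest pair, AsnS and ppl, lay 105.5 kb apart, and no gene of the set was the neighbour of another. Of the 114 neighbouring genes tested, 57 were lower and 31 higher in prepupae titled LacZ than in those titled mitf, with a median of -0.67. Of the 58 genes, 21 overlap a neighbouring gene in the annotation, so that part of a neighbour's value may come from shared sequence where counting could not separate them.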

How the data were processed

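Poly(A) RNA of fat body was sequenced in 9 libraries with a stranded kit, per the labels' protocols. Per the submitters' processing notes, bcl2fastq, Salmon 1.5.2 and DESeq2 were used with the genome build BDGP6. The deposited values are a normalised signal, 1 per gene and library, not whole counts, and no other step by the authors is given in the sources used here. Relative to the geometric means of 7791 genes above 0 throughout, the median ratio was equal in all libraries. Low values were whole multiples of 1 step in 69.5% to 76.2% of genes (tolerance 0.05, up to 10 steps), too few to recover reads for every gene.

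The values were fitted on the log2(value + 1) scale by limma 3.58.1 (R 4.3.3) with its trend option, and genes that reached 1 in 3 or more libraries were tested, 10139 in all. All 9 libraries entered 1 fit with 1 coefficient per group, p-values were two-sided and Benjamini-Hochberg adjusted over all genes tested, and calls were made under 0.05. The pseudocount of 1 understates differences of low genes. The script was tested on simulated data. Gene positions and lengths came from the Ensembl release 115 annotation, in which 10189 genes had a model. Symbols came from a gene name table, which lacked 54 identifiers.

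The members and lists were chosen with earlier results of these data known, and the ER and close copy lists after the members were seen. Members named are those at 0 in prepupae titled LacZ, those with the largest ratio, level or difference between larvae and prepupae titled mitf, those next to the thresholds and those in a list, and the remaining named members were added after their values were seen. One member is not reported here by name. A search for motifs in promoters was not run, as no promoter sequences were used here. Alternatives were the scaling, pseudocount, filter, trend, samples in the fit, replicate block, thresholds of the rule and each library left out.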

Additional observations from a re-analysis of the deposited data

How the results depend on the processing

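The number of genes that met the rule was 58 and depended on scaling and thresholds. It was 26 with libraries scaled to the same total, 74 with trimmed mean scaling, 180 with a ratio of 4, 12 with a ratio of 16, 98 with group means in place of the lowest and highest library, and 58 to 67 with each library left out. The 58 were among the genes found under each of these except the totals, which kept 26, the ratio of 16, which kept 12, and a floor of 200, which kept 56. The number of members called between larvae and prepupae titled mitf was 38 and ran from 35 to 45, and from 35 to 44 with each library left out, with 15 to 20 higher and 19 to 25 lower. Over all genes the calls ran from 6363 to 6938 with each library left out. The replicate block gave 38 members (17 higher, 21 lower) and 6662 genes. Deviations from the group means of same-numbered libraries of larvae and prepupae titled mitf had correlations of 0.06, -0.07 and 0.03. They were 0.03, 0.02 and 0.05 for larvae with prepupae titled LacZ, and -0.01, 0.09 and 0.07 between the prepupae. Differently numbered libraries ran from -0.13 to 0.10. With 3 libraries per group, such values cannot settle whether the numbers pair libraries. Of 1044 values of single members, 990 kept direction and call, 13 lost a call (AsnS, CG30428, CG7997 and Ssadh), 32 gained one in 11 genes, Spase25 among them in 5 alternatives, and 9 changed sign, none of them called. By scaling these were CG7460 at 0.00326 with totals and Alg11 at -0.0236, CG18547 at -0.00978 and CG8860 at -0.0454 with trimmed mean scaling. With each library left out, CG6834 ran from -0.203 to 0.102, Alg11 from -0.0384 to 0.143, CG8860 from -0.0752 to 0.120 and CG7460 from -0.151 to 0.0580. The cause was not tested. Of the 17 ER entry genes that are not members, 13 were lower between the prepupae under every scaling and with each library left out, alternatives added after seeing the data, and 3 or 4 were higher. Over the gene lists, a called gene changed sign between the prepupae for zfh1, of the gonad markers, and for fdl, both with totals, and the lower calls went from 7 to 5 for the Alg enzymes and from 11 to 7 for the hormone genes with totals. Scaling moved the median of all genes in that comparison by 0.41 (totals) or -0.17 (trimmed mean). The depth leaves the lowest values, such as that of CG7460 in prepupae titled LacZ, at a few reads.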
